A study of Arabidopsis thaliana with 6 samples.

Results

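HYH and GI are Arabidopsis regulators tied to light signalling and to daylength. HYH (AT3G17609) is a light-signalling bZIP transcription factor and GI (GIGANTEA, AT1G22770) is a clock and daylength gene. Both were chosen by their measured levels in treated against untreated rosettes, so that comparison is given for them as a description, with no test. Each is the subject of 1 probe set that names no other gene, 258349_at for HYH and 264211_at for GI, and together they are 2 of 13356 genes measured.

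The 6 Affymetrix ATH1 arrays carried RNA of whole rosettes of cat2-2, a Col-0 line without normal function of the main leaf catalase. The untreated group had 3 biological replicates taken at 0 h, at an age of 21 days, from plates kept in long days. The treated group had 3 biological replicates taken at 24 h, at 22 days, after the plates were sealed with parafilm against gas exchange and kept in unbroken light. Every plant in both groups carried cat2-2 and grew on medium with sucrose, each replicate pooled rosettes, and the plates also held shr-6 cat2-2 seedlings. A group without the catalase mutation and the shr-6 cat2-2 arrays were not analysed here. Continuous light, restricted gas exchange and 1 more day of age changed together and cannot be told apart. The labels do not state at what hour of day the rosettes were taken.

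HYH is the close homologue of HY5. Both proteins bind promoters of light-responsive genes, can pair with each other, and are removed in darkness through the COP1 ubiquitin ligase, so that they accumulate in light. GI is a large plant-specific protein whose transcript normally peaks late in the day. It stabilises the blue-light receptor ZTL in the clock, and with FKF1 it clears CDF repressors, which allows expression of the flowering activators CO and FT in long days.

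All levels are RMA values on the log2 scale, differences are treated minus untreated means of these values, errors after a level are SDs and errors after a difference are standard errors (SE) from limma, with n = 3 arrays per group. The 3 against 3 arrays limit the precision. Of 22746 probe sets tested, 9479 (41.7%) were called at an adjusted p under 0.05, 19.4% of all higher and 22.2% lower. Scaled to the brighter bacterial poly(A) spikes, 65.0% of 8688 called probe sets were higher, and scaled to the hybridization controls 71.2% of 6644, against 46.6% of 9479 as deposited. Of the markers of the labelled tissue, 5 leaf genes, among them the Rubisco activase gene RCA, were measured, and of root markers the root hair genes EXPA7 and EXPA18. Each list was compared between the groups only, since levels of different probe sets cannot be set against each other, and flower markers were not analysed here. The summed level was 67.4 to 67.5 on untreated and 66.2 to 66.7 on treated arrays for the leaf markers, and 9.68 to 10.2 and 9.57 to 9.98 for the root genes. Among the leaf markers, the light-harvesting genes LHCB4.2 and LHCB4.1 fell by 0.88 and 0.24 (adjusted p = 4.14e-06 and 0.0188). The other 3 did not pass, with RCA at 0.19, PRK at 0.06 and SBPASE at -0.08 (adjusted p = 0.0625, 0.623 and 0.469). The lower sum on treated arrays was thus not a fall of all 5 genes. The part of these markers in the results was not tested.

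The HYH transcript was several times more abundant after the treatment. HYH stood at 6.47, 5.92 and 6.19 on untreated arrays 1 to 3 and at 9.00, 9.27 and 9.01 on treated arrays 1 to 3. Every treated array lay far above every untreated array, and the gap between the highest untreated and the lowest treated array was 2.54. The group means were 6.19 ± 0.28 and 9.09 ± 0.15, a difference of 2.90, or 7.46-fold. Single treated and untreated arrays differed by between 2.54 and 3.35. Of all probe sets, 83 had a larger positive difference. The difference was 13.04 times the pooled SD of HYH within groups, which at 0.22 was wider than the median of 0.10 over all probe sets.

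GI showed a small downward difference whose groups were barely apart. GI stood at 8.04, 7.92 and 8.36 on untreated arrays 1 to 3 and at 7.86, 7.81 and 7.69 on treated arrays 1 to 3. The treated arrays all lay below the untreated arrays, but the gap between the lowest untreated and the highest treated array was only 0.06. The group means were 8.11 ± 0.23 and 7.79 ± 0.08, a difference of -0.32, or 1.25-fold. The difference was 1.88 times the pooled SD of GI, and single pairs of arrays differed by between -0.06 and -0.67. Of all probe sets, 34.0% had a difference at least as large in size as that of GI, and 50.8% had groups that did not overlap, so that a difference of this size, and groups apart, were both common on the array. In whole rosettes, fewer cells that hold a transcript and less of it per cell cannot be told apart.

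**Figure D1:**
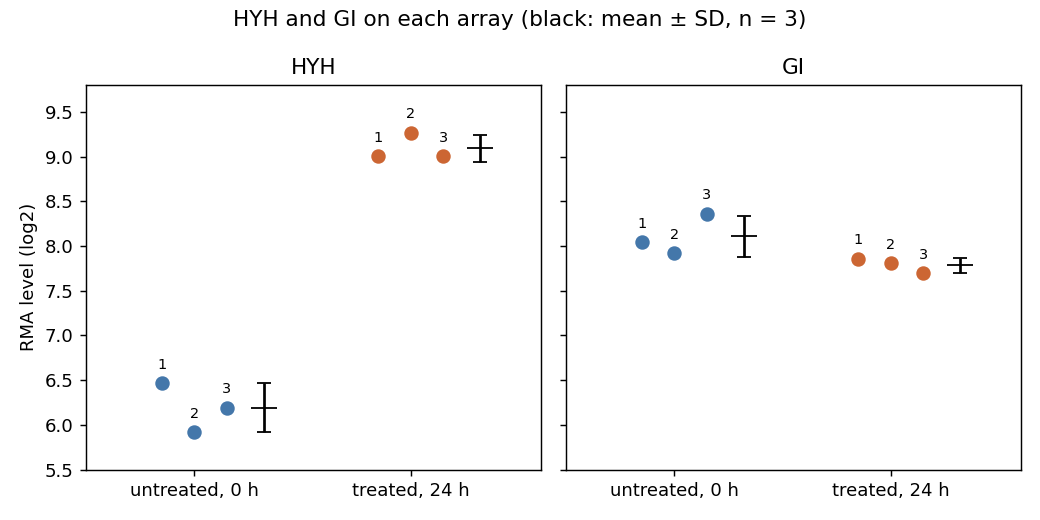
Level of HYH (left) and GI (right) on each array, in log2 RMA units on a shared axis, with the replicate number above each point and the mean ± SD of 3 arrays in black. The HYH groups are separated by 2.54, and the GI groups by 0.06.

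The HYH difference was 2.76 without untreated replicate 2 and 3.04 without untreated replicate 1, the lowest and highest values when 1 array was left out. The GI difference was -0.20 without untreated replicate 3, which held the highest GI level, and -0.42 without untreated replicate 2. Anchoring the arrays on spikes or hybridization controls raised all differences together by 0.06 to 0.21. The GI difference then became -0.18 with the brighter poly(A) spikes and -0.11 with the hybridization controls, while that of HYH became 3.04 and 3.11. Averaging linear intensities instead of log2 levels gave 2.89 for HYH and -0.33 for GI.

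**Figure D2:**
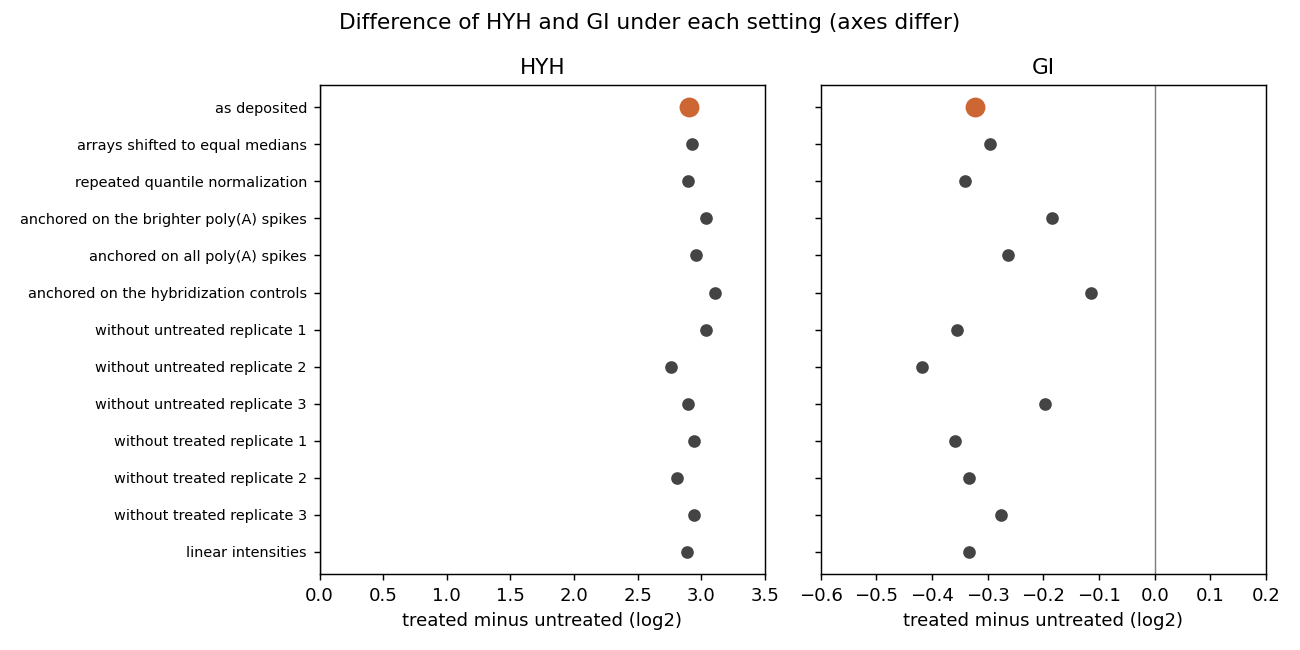
Treated minus untreated difference, in log2 units, of HYH (left) and GI (right) as deposited (large orange point) and under each other scaling or with 1 array left out, on axes that differ between the panels. HYH stays between 2.76 and 3.11, and GI between -0.42 and -0.11. The groups of each gene do not overlap, so leaving out 1 array could not change the sign.

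As a bZIP factor, HYH was set against the other measured genes that the gene tables name bZIP with a number, as symbol or synonym. Any bZIP gene without such a name was left out. Of the 22 genes so named, 4 rose and 3 fell, or 31.8%, against 41.7% of all probe sets. Their median difference was -0.03 against -0.01. Without the dimmest 40% of probe sets, 11 were left and 6 called, against 8462 of 13647 probe sets. The differences of the 22 ranged from -1.13 to 1.37, all smaller in size than the 2.90 of HYH. HYH was chosen by this comparison and they were not, so its rank above them is no result. The largest increase was in BZIP53, a factor of amino acid metabolism and of the response to low energy. BZIP53 stood at 9.27, 9.21 and 9.39 untreated and at 10.8, 10.8 and 10.4 treated. Its groups were well apart, with a difference of 1.37 ± 0.10 (adjusted p = 9.49e-07).

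BZIP60 rose by 0.92 ± 0.08 (adjusted p = 4.85e-06) and BZIP28 by 0.54 ± 0.08 (adjusted p = 0.000125). Both are membrane-bound factors of the endoplasmic reticulum stress response, and BZIP17, the third factor of that kind measured, stood at 0.12 (adjusted p = 0.313). The fourth gene that rose was bZIP44, by 0.62 ± 0.09. BZIP61 fell by 1.13 and its relative BZIP34 by 1.11, with adjusted p-values of 1.86e-06 and 4.84e-06. The third gene that fell was bZIP29, at -0.54 ± 0.09 (adjusted p = 0.000471), but scaled to the hybridization controls it stood at -0.33 (adjusted p = 0.157). FD, the bZIP partner of the florigen FT, stood at -0.13 (adjusted p = 0.402).

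Among genes of light signalling, 1 of the 31 listed at the outset was named by the gene tables, and 13 more were added from the genes that the tables do name. HY5, COP1, the phytochromes and the cryptochromes were not analysed here, nor were the listed HY5-dependent genes. Of the 14 measured, 2 rose and 5 fell, 50.0% against 41.7% of all probe sets, with a median difference of -0.09. The count was 3 without untreated replicate 3, 4 without treated replicate 2 and 3 without treated replicate 3. The balance also depended on the scaling, with 3 higher and 1 lower on the brighter poly(A) spikes, 3 and 2 on all poly(A) spikes, and 2 and 1 on the hybridization controls. Without moderation of the variances, 0 passed as higher and 2 as lower.

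The largest change in the list was in IAA29, an auxin response repressor known to be raised by shade. IAA29 stood at 7.73, 7.98 and 7.59 on untreated arrays and at 5.78, 5.35 and 5.41 on treated arrays. The groups were far apart, in the direction opposite to HYH, with a difference of -2.25 ± 0.13, or 4.76-fold (adjusted p = 1.25e-07). HAT2, a homeodomain-leucine zipper gene of shade and auxin responses, fell by 0.37 (adjusted p = 0.00807), and with the brighter poly(A) spikes as anchor it stood at -0.23 (adjusted p = 0.166). CSA1, an immune receptor-type gene named for constitutive shade avoidance, fell by 0.30 (adjusted p = 0.00874), and with all poly(A) spikes as anchor it stood at -0.24 (adjusted p = 0.0581).

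The remaining calls among the light signalling genes were small, and each was lost when single arrays were left out. The SUMO ligase gene SIZ1 rose by 0.30 ± 0.09 (adjusted p = 0.0175), a call that did not hold once untreated 2, untreated 3 or treated 3 was dropped (0.24, 0.29 and 0.26). The trihelix factor gene GT2 rose by 0.26 ± 0.08 (adjusted p = 0.0268). Only dropping untreated 1 kept that call; without untreated 2 and 3 and treated 1, 2 and 3 the values were 0.20, 0.26, 0.28, 0.22 and 0.27. BLUS1, a kinase gene of phototropin signalling, fell by 0.32 (adjusted p = 0.0283), a call that did not hold once untreated 1, untreated 3, treated 2 or treated 3 was dropped (-0.30, -0.22, -0.29 and -0.31). SHB1, a gene of hypocotyl growth in blue light, fell by 0.27 (adjusted p = 0.0307), which did not hold once untreated 2, untreated 3 or any treated array was dropped (-0.19 to -0.28).

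CUL4, the cullin scaffold of the ligases that include COP1, stood at 0.00 ± 0.08 (adjusted p = 0.993), with levels of 10.04 to 10.2 on all 6 arrays. CSN5B, a subunit of the COP9 signalosome, which acts on cullin ligases, stood at -0.13 (adjusted p = 0.236). FHL, which carries phytochrome A into the nucleus, stood at -0.03 (adjusted p = 0.849) and AFR, an F-box gene of phytochrome A signalling, at 0.21 (adjusted p = 0.0636). AFR did pass in some settings, with 0.35 (adjusted p = 0.0261) on the brighter poly(A) spikes and 0.26 (adjusted p = 0.0373) without untreated replicate 2.

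Among clock genes, 3 of 38 listed were named under an accepted symbol and 4 were added from the tables. CCA1, LHY, TOC1, the other pseudo-response regulators, ZTL and FKF1 were not analysed here, nor were the listed clock output genes. Of the 7 measured, 2 rose and 0 fell by limma, or 28.6%, against 41.7% of all probe sets. At an unadjusted p under 0.05, 2 were higher and 1, CCL, was lower. Without moderation of the variances another gene, LIP1, passed as lower (adjusted p = 0.00865). The median difference was 0.06. COR27, a repressor of evening clock genes that is itself regulated by light and cold, had the largest change. It stood at 3.85, 3.77 and 3.90 on untreated arrays and at 5.87, 5.03 and 6.33 on treated arrays. The treated arrays were all higher but spread over more than a log2 unit, and the difference was 1.90 ± 0.24, or 3.74-fold (adjusted p = 6.01e-05). Whether its untreated level was above background was not tested, so the fold is uncertain.

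SPY, an O-fucosyltransferase gene of gibberellin signalling whose protein binds GI, rose by 0.30 ± 0.09 (adjusted p = 0.0161). Its level was 7.47, 7.43 and 7.61 untreated and 7.68, 7.86 and 7.88 treated, with groups just apart. It did not hold once untreated 2, treated 2 or treated 3 was dropped (0.26, 0.27 and 0.27), and without treated 2 or treated 3 the count of clock genes called was 1. LIP1, a small GTPase of light input to the clock, stood at -0.16 (adjusted p = 0.106) and CCL, a transcript under clock control, at -0.25 (adjusted p = 0.0752). CCL passed without untreated replicate 2 at -0.35 (adjusted p = 0.0131). It also passed with repeated quantile normalization at -0.27 (adjusted p = 0.0457). With a trended, robust moderation of the variances it passed at -0.25 (adjusted p = 0.0349). In each of these last settings the count of clock genes called was 3. The period genes XCT, FIO1 and TIC stood at 0.16, 0.06 and -0.08, and XCT passed at 0.30 (adjusted p = 0.0438) on the brighter poly(A) spikes.

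For photoperiod and flowering, 3 of 17 listed genes were named under an accepted symbol and 12 were added. The list is not limited to genes that act downstream of GI. CO, FT and CDF1 were not analysed here. Of the 15 measured, 5 rose and 2 fell, 46.7% against 41.7% of all probe sets, with a median difference of 0.05. Without PKDM7D, which does not belong in the list, 4 of 14 rose and 2 fell, or 42.9%. SNZ, an AP2-type repressor of flowering, stood at 6.32, 6.31 and 5.85 on untreated and at 5.18, 5.08 and 5.05 on treated arrays. It fell by 1.06, or 2.08-fold (adjusted p = 2.57e-05), with no overlap. Its relative SMZ moved the other way, with a rise of 0.35 ± 0.10 (adjusted p = 0.0136) that was lost without untreated replicate 1 or 3 (0.31 and 0.28). Without either array the count for the 3 genes listed at the outset was 1 instead of 2.

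PKDM7D, a JmjC histone demethylase gene put in this list in error as a repressor of FT, rose by 0.56 ± 0.10 (adjusted p = 0.000711). The MADS-box genes AGL24, which promotes flowering, and AGL18, which delays it, rose by 0.49 and 0.46 (adjusted p = 0.00057 and 0.00176). PHL, named for phytochrome-dependent late flowering, rose by 0.36 (adjusted p = 0.00954), a call not made without moderation of the variances (adjusted p = 0.0715). AGL16, another MADS-box repressor, fell by 0.23 (adjusted p = 0.0425), and that call did not hold once untreated 1, untreated 3 or any treated array was dropped (-0.18 to -0.25), nor on the brighter poly(A) spikes (-0.09, adjusted p = 0.581). The autonomous pathway genes LD and FY stood at 0.00 and -0.05, and DNF, a repressor of CO, at 0.20 (adjusted p = 0.0893). DNF passed without untreated replicate 1, at 0.27 (adjusted p = 0.0333), and whether its level was above background was not tested.

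The genes next to HYH and GI on their chromosomes were also looked at, with the 3 nearest measured genes taken on each side. Of 12 such genes, 1 rose and 2 fell, 25.0% against 41.7% of all probe sets. Many of the 12 were dim: without the dimmest 40% of probe sets, 5 were left and 2 called, against 8462 of 13647 probe sets. IAA31, the gene next to HYH, stood at 3.60, 3.68 and 3.72 untreated and at 3.64, 3.74 and 3.60 treated, a difference of 0.00 (adjusted p = 0.973). Whether IAA31 was above background was not tested, so a change in its transcript could have been missed. BSH, the next but one on that side and a chromatin remodelling subunit, stood at 0.01 (adjusted p = 0.926). The 1 gene near HYH that passed was AT3G17640, 6 genes away, which fell by 1.37 (adjusted p = 5.25e-07). Near GI, AT1G22750 and AT1G22790, each 2 genes away, passed in opposite directions, at 0.41 and -0.43 (adjusted p = 0.00137 and 0.00107). The call of AT1G22790 was lost on the brighter poly(A) spikes, at -0.29 (adjusted p = 0.0589), and AT1G22730, at 0.22 (adjusted p = 0.0788), passed without untreated replicate 3, at 0.30 (adjusted p = 0.0303).

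The pattern of HYH over the 6 arrays was compared with that of the other 1556 genes with a symbol by Pearson's r, given as a description, since all arrays share the same group difference. Of these genes, 187 had r above 0.95 with HYH. The 5 highest were the sugar transporter gene SWEET2 (0.999), the pyruvate orthophosphate dikinase gene PPDK (0.998), the cytochrome c gene CYTC-1 (0.998), the ascorbate synthesis gene GME (0.997) and the auxin glucosyltransferase gene IAGLU (0.997). Their differences were 2.20, 1.96, 0.78, 0.89 and 2.38. After the group means were taken out, r with HYH was 0.976 for SWEET2, 0.939 for GME, 0.923 for PPDK, 0.868 for CYTC-1 and 0.787 for IAGLU. These genes were picked by r over the same arrays, so high values here follow in part from the choice and add no support. SWEET2 stood at 7.95, 7.45 and 7.64 untreated and at 9.85, 9.99 and 9.81 treated, with untreated replicate 1 the highest and replicate 2 the lowest of their group, as for HYH.

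For GI, 3 of the 1556 genes had r above 0.95. The group difference weighs in r, and it was 1.88 times the pooled SD for GI against 13.04 for HYH. The counts for HYH and GI are thus not comparable. The 5 highest were the endoglucanase-type gene GH9B6 (0.983), AGL16 (0.955), the phosphoribosyltransferase gene HGPT (0.951), the GPI-anchor synthesis gene SETH2 (0.949) and the membrane trafficking gene SNF7.2 (0.944). Their differences were small, from -0.23 to -0.11, and their r without group means was 0.867 to 0.961. Here too the genes were picked by r over the same arrays, so these values follow in part from the choice. GH9B6 stood at 3.88, 3.84 and 4.05 untreated and at 3.79, 3.78 and 3.66 treated. As for GI, its highest level was on untreated replicate 3 and its lowest on treated replicate 3. The difference of GH9B6 did not pass (adjusted p = 0.121), and whether its level was above background was not tested.

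**Figure D3:**
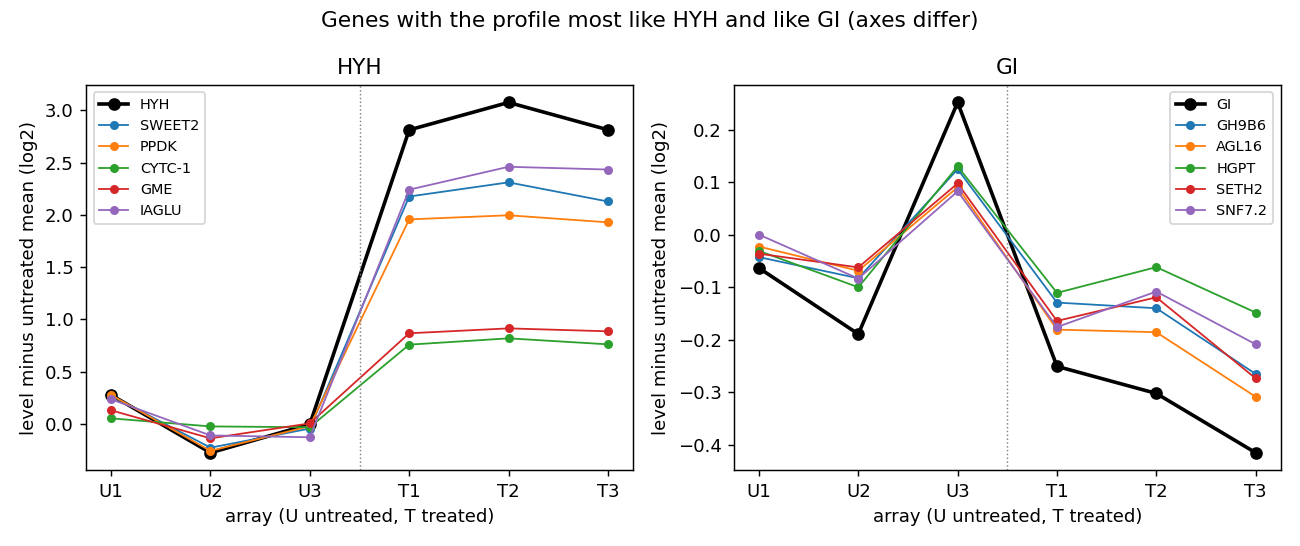
Level minus the untreated mean, in log2 units, on untreated (U1 to U3) and treated (T1 to T3) arrays for HYH (left) and GI (right) in black and the 5 genes with the highest Pearson's r with each, on axes that differ between the panels. HYH and its 5 genes step up by 0.78 to 2.90, while GI and its 5 genes shift by -0.32 to -0.11.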

How the data were processed

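The authors deposited log2 levels per ATH1 probe set; the submitters' processing notes name RMA, with no version. Samples were grouped by their titles. Of 22810 probe sets, 64 control sets were kept apart and 22746 tested, with no filter on low values. Probe sets were named through GEO's platform annotation and RefSeq's gene table of assembly TAIR10.1, used for names and gene order only: 13513 probe sets named 1 gene (13436 matched to RefSeq), 503 several, and 8730 were unnamed. Where a gene had several probe sets, the one of highest mean level stood for it.

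All probe sets were fitted with lmFit and eBayes of limma (version 3.58.1, under R 4.3.3; two-sided, no covariates, Benjamini-Hochberg adjustment over all). The steps were tested on simulated data in which far fewer probe sets were changed than were called here. Of changes of 0.5 in log2, 34 of 67 were recovered, of changes of 1, 61 of 67, and of changes of 2, 66 of 66. Small true changes can thus be missed among genes that did not pass. Python 3.11.15, pandas 2.3.3 and matplotlib 3.10.9 did the rest. Members and lists were chosen with earlier results of these data known, and the added genes, the bZIP list and the neighbours after the gene tables were seen. A listed gene counted where the tables give its locus an accepted symbol. By rule the text names the members, and from each initial list up to 4 increases and 4 decreases past the threshold. It also names listed core regulators (none had a probe set named under an accepted symbol) and the 5 genes of highest r with each member. Genes of the added lists, and those that did not pass, were named after their values were seen. Replicates are labelled biological. Anchored settings subtract each array's median over 13 bright poly(A) spike sets, all 24, or 18 hybridization control sets. Alternatives also covered a replicate block, dim and shared probe sets, other normalization and moderation, a threshold of 0.01, and leaving out each array. Promoter motifs were planned and are not analysed here.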

Additional observations from a re-analysis of the deposited data

How the results depend on the processing

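In the 12 other settings tried for each, HYH lay between 2.76 and 3.11 and GI between -0.42 and -0.11. That neither changed sign adds no support. The groups of each gene do not overlap, so leaving out 1 array or averaging linear intensities could not change the sign. Anchoring raised all differences by at most 0.21. The value of -0.11 for GI, on the hybridization controls, moved by more than the pooled SD between replicates. With 1 array left out, HYH ranged from 2.76 to 3.04 and GI from -0.42 to -0.20. The count over all probe sets ranged from 6644 to 9572 against 9479. For the clock genes listed at the outset the count was 1 against 0 with the brighter poly(A) spikes. For the photoperiod and flowering genes listed at the outset it was 1 against 2 without the dimmest 40% of probe sets, without moderation and at an adjusted p of 0.01, and 1 to 2 with 1 array left out. For all 14 light signalling genes it was 4 against 7 with the brighter poly(A) spikes, 3 with the hybridization controls and at 0.01, 2 without moderation, and 3 to 6 with 1 array left out. For all 7 clock genes it was 1 against 2 without the dimmest 40% (COR27 was among those left out) and at 0.01, and 1 to 2 with 1 array left out. For all 15 photoperiod and flowering genes, PKDM7D among them, it was 4 against 7 without moderation. As deposited, the count without PKDM7D was 6. For the dim filter, COR27 and SMZ were no longer tested; the cause of the other shifts was not tested. Of 1144 values of 69 single genes under the alternatives, 1058 stayed on their side of the threshold, 63 lost the call and 23 gained it. Among the 1058, 83 values of 31 genes, called neither as deposited nor under the alternative, changed sign, 25 of them on the hybridization controls and 20 on the brighter poly(A) spikes, so the sign of a gene that did not pass carries no direction. Same-numbered residuals correlated at 0.07, -0.06 and 0.000766, and different-numbered ones at -0.11 to 0.10, so no pairing by replicate number was seen. Whether the replicates were grown or processed in pairs cannot be told from these values. With the replicate number as a block, 9190 probe sets were called, 7 light signalling, 2 clock and 6 photoperiod and flowering genes, 7 bZIP genes and 3 neighbours, and of the 69 single genes AGL16 alone changed side (adjusted p = 0.0745).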
